A study of Mus musculus with 8 samples.

Results

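The genes described here encode the enzymes that build cholesterol and fatty acids, the factors that switch these enzymes on, and the proteins that move cholesterol within cells or export it. They were chosen as a fixed list of 38 gene symbols, of which 35 had a transcript cluster with that single symbol, among 19938 genes measured in all. Acat2, Soat1 and Nr1h2 had no such cluster and were not analysed here.

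RNA came from mouse naive CD4 T cells, the helper T cells that have not yet met antigen, sorted from mice with a T cell-specific conditional Bcl6-/- genotype (n = 4, called Bcl6 cKO) and from wild-type mice (n = 4, called WT). Bcl6 is a transcriptional repressor that directs follicular helper T cells. Antibodies to CD3 and CD28 were applied for 24 hours to all 8 samples, WT included, and 100 ng of total RNA was labelled for an Affymetrix whole-transcript array. The labels give the tag Tf0 without its meaning, and they give neither the Cre line, the age nor the sex of the mice. Since they do not say how samples map to mice, the p-values refer to the spread among these 8 samples, which may be technical.

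Cells make cholesterol from acetyl-CoA through mevalonate and squalene. When sterols run low, SCAP escorts the factors SREBP-1 and SREBP-2 (genes Srebf1 and Srebf2) out of the endoplasmic reticulum, and they activate the genes of sterol and fatty acid synthesis; INSIG proteins hold them back when sterols are plentiful. Oxysterols activate the nuclear receptors LXR, which raise cholesterol export. Activated T cells are known to raise SREBP activity and lower LXR activity as they prepare to divide.

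The sorted cells carried markers of T cells, Cd4 among them. The 5 T cell markers with a usable cluster (Cd3e, Cd3g, Cd4, Cd28 and Lat) had mean log2 signals of 12.7 to 12.9 on the Bcl6 cKO arrays and 12.8 to 12.9 on the WT arrays. Macrophage and monocyte markers (4 genes) averaged 6.01 to 6.45 in Bcl6 cKO and 5.99 to 6.23 in WT, and B cell markers (3 genes) 6.20 to 6.37 and 6.21 to 6.32. The CD8 T cell marker Cd8b1 read 10.41 to 10.78 in Bcl6 cKO and 10.90 to 11.12 in WT, above those averages. These values do not show how pure the CD4 cells were. Bcl6 itself read 8.40 to 9.05 on Bcl6 cKO arrays and 8.10 to 8.56 on WT arrays. Its mean log2 signal was higher in Bcl6 cKO by 0.37 (adjusted p = 0.337 over all genes in limma), so the array did not show its loss. Which exons were removed is not stated. Y-linked Kdm5d and Uty were high on Bcl6 cKO replicate 1 and WT replicates 1 to 3, and Xist was high on Bcl6 cKO replicates 2 to 4 and WT replicate 4. WT replicate 4 stood apart from the other arrays, with an interquartile range of deviations from each gene's median of 0.18, against 0.085 to 0.115 on the other 7.

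The sequences printed first belong to genes whose values the following paragraphs turn on: Hmgcs1 and Idi1 of the mevalonate steps, Cyp51 of the squalene-to-cholesterol steps, and Mylip, a target of LXR. Abcg1, Fdft1 and Sqle, also described there, had no promoter window to print. Each is the RefSeq promoter window (GRCm38.p6) from 250 bases before the annotated start to 50 bases after it, on the strand of the gene, and capitals mark matches on either strand to TCACNCCAC, a sterol response element to which SREBPs bind, or to CCAAT, the box of NF-Y, a known partner of SREBPs.
Hmgcs1, chr13:119690101-119690400, plus strand: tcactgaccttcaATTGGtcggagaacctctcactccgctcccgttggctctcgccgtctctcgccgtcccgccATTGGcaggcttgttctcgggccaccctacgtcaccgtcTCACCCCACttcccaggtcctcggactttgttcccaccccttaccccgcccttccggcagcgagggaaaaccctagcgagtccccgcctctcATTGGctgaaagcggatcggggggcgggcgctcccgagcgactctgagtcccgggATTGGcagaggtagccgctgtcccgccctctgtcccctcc
Idi1, chr13:8885356-8885655, plus strand: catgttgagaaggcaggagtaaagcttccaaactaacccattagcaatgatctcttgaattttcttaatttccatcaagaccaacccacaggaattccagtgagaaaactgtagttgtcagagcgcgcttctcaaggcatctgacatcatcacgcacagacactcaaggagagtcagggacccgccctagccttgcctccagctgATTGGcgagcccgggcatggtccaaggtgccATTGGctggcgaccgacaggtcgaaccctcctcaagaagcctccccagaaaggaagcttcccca
Cyp51, chr5:4104648-4104947, minus strand: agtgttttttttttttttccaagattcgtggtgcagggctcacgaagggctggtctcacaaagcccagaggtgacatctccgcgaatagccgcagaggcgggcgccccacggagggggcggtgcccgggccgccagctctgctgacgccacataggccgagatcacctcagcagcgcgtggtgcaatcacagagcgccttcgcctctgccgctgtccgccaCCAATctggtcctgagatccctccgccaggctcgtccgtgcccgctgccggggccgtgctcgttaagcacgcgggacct
Mylip, chr13:45389492-45389791, plus strand: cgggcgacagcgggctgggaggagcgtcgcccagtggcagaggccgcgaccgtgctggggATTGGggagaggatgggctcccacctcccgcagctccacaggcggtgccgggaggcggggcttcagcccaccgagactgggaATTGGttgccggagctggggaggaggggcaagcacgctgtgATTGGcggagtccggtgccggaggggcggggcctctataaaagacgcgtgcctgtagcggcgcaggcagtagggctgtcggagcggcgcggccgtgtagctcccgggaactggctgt

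Of the 35 measured genes, 27 had a promoter window in the RefSeq table, and 23 of these held CCAAT in at least 1 window, against 41.1% of all 27025 genes with a window. The Hmgcs1 window held 4 such boxes, that of Mylip 3, that of Idi1 2 and that of Cyp51 1. Among the 27 genes TCACNCCAC was present in Hmgcs1 alone, 137 bases before the start, where 1.44% of all genes held it. The marked matches do not overlap each other. Matches to TTCCTNGAA, a form of the Bcl6 site, were present in 0 of the 27 genes and in 1.86% of all genes. These are matches of letters within a short window, and no LXR element was searched for.

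The comparison asks whether these pathways differ with the Bcl6 genotype in activated CD4 T cells. Most Bcl6 cKO arrays had high Xist and most WT arrays high Y-linked signal. The main fit had no term for sex, so genotype and sex are partly mixed in its differences. No gene of the list passed an adjusted p of 0.05 over all genes in limma (0 of 35), where 0.221% of all genes did, 21 higher and 23 lower in Bcl6 cKO. Centring each array on its median turned that split of all genes to 19 higher and 13 lower, and quantile normalization to 22 and 14. At an unadjusted p under 0.05, 2 of the 35 genes were higher, Idi1 and Cyp51, against 4.67% of all genes, and 2 were lower, Abcg1 and Mylip, against 6.17% of all genes. These shares lie near the background of all genes. The log2 difference, Bcl6 cKO minus WT, was above 0 for 21 of the 35 genes and had a median of 0.03, where 51.0% of all genes lay above 0 with a median of 0.0025. Without WT replicate 4 it was above 0 for 17 of the 35 with a median of -0.0075, and with array weights for 18 of 35 with a median of 0.0051. Without any other single array 20 to 26 of the 35 lay above 0, with medians from 0.014 (without Bcl6 cKO replicate 4) to 0.059 (without WT replicate 1).

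**Figure D1:**
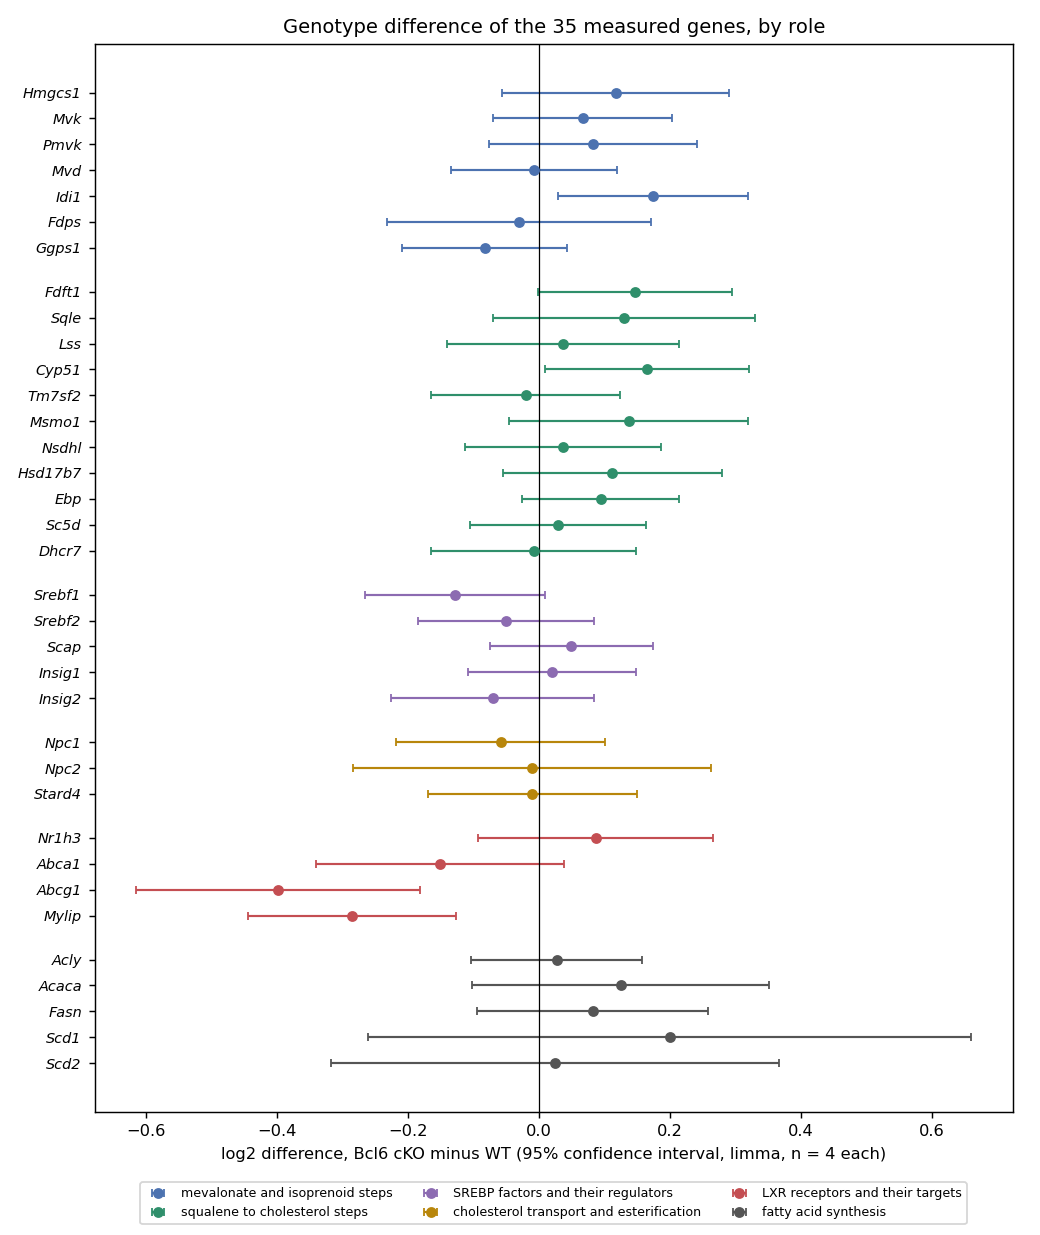
Log2 difference, Bcl6 cKO minus WT, of each of the 35 genes (horizontal axis) with its 95% confidence interval from limma (n = 4 each), grouped by role. The points lie between -0.40 for Abcg1 and 0.20 for Scd1, and the intervals of Idi1, Cyp51, Abcg1 and Mylip exclude 0.

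The genes with the smallest p were 2 targets of LXR. Abcg1, which encodes a transporter that exports cholesterol, had log2 signals of 8.65, 8.75, 8.77 and 8.60 on Bcl6 cKO replicates 1 to 4, against 8.92, 9.26, 8.88 and 9.30 on WT replicates 1 to 4. Every Bcl6 cKO array lay below every WT array, and the WT arrays formed a lower pair (replicates 1 and 3) and a higher pair (2 and 4). The difference was -0.40 (SE 0.098, 95% confidence interval -0.61 to -0.18), or 1.32-fold lower, and did not pass over all genes (adjusted p = 0.157).

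Mylip encodes a ubiquitin ligase, also called IDOL, that marks lipoprotein receptors for degradation and so limits cholesterol uptake. Its log2 signals were 8.51, 8.63, 8.55 and 8.48 in Bcl6 cKO, against 8.76, 9.0, 8.68 and 8.87 in WT. The groups did not overlap here either. The difference was -0.29 (SE 0.072, 95% confidence interval -0.44 to -0.13), or 1.22-fold lower, with an adjusted p of 0.161. Abcg1 and Mylip were the 2 genes of the 35 whose groups did not overlap, both lower in Bcl6 cKO, against 3.64% of all genes with separate groups in that direction; 0 of 35 were separate and higher, against 2.33%.

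Abca1, the transporter that loads cholesterol onto apolipoprotein A-I and is a further LXR target, read 6.68, 6.97, 6.83 and 6.60 in Bcl6 cKO, against 6.83, 7.0, 6.82 and 7.03 in WT. Bcl6 cKO replicates 1 and 4 were the lowest arrays, and the groups overlapped, with a difference of -0.15 (95% confidence interval -0.34 to 0.039, adjusted p = 0.579). Nr1h3, which encodes LXR alpha, averaged 6.97 ± 0.07 in Bcl6 cKO and 6.89 ± 0.17 in WT (SD, n = 4 each), and its WT mean rests on replicate 4 at 7.14, the other WT arrays reading 6.79 to 6.81. Without WT replicate 4 the Nr1h3 difference was 0.17 (adjusted p = 0.267), against 0.09 with all arrays (adjusted p = 0.78). Its Bcl6 cKO arrays read 6.91 to 7.07, all above the WT arrays other than replicate 4. The mean signals of Abca1 and Nr1h3 lay under the median of all genes.

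The groups of Abcg1 and Mylip did not overlap, so every subset of arrays must give a difference below 0. Only the size of the difference could vary between the subsets by sex-linked genes. Among arrays with high Y-linked signal (Bcl6 cKO replicate 1 against WT replicates 1 to 3) the difference was -0.37 for Abcg1 and -0.30 for Mylip. Within the arrays with high Xist (Bcl6 cKO replicates 2 to 4 against WT replicate 4) it was -0.59 for Abcg1 and -0.32 for Mylip. Without WT replicate 4 the values were -0.33 and -0.27.

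A CD8 T cell marker was also lower, short of the threshold over all genes. Cd8b1 read 10.52, 10.56, 10.78 and 10.41 in Bcl6 cKO, against 10.90, 11.12, 11.02 and 11.12 in WT (difference -0.47, adjusted p = 0.0541). The other CD8 marker, Cd8a, read 6.90 to 7.05 in Bcl6 cKO and 6.93 to 7.14 in WT (difference -0.02), and the mean of both was 8.66 to 8.92 in Bcl6 cKO and 8.92 to 9.13 in WT. The part of other cells in the values of Abcg1 and Mylip was not tested. In such bulk samples fewer cells of a type and less RNA per cell cannot be told apart.

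**Figure D2:**
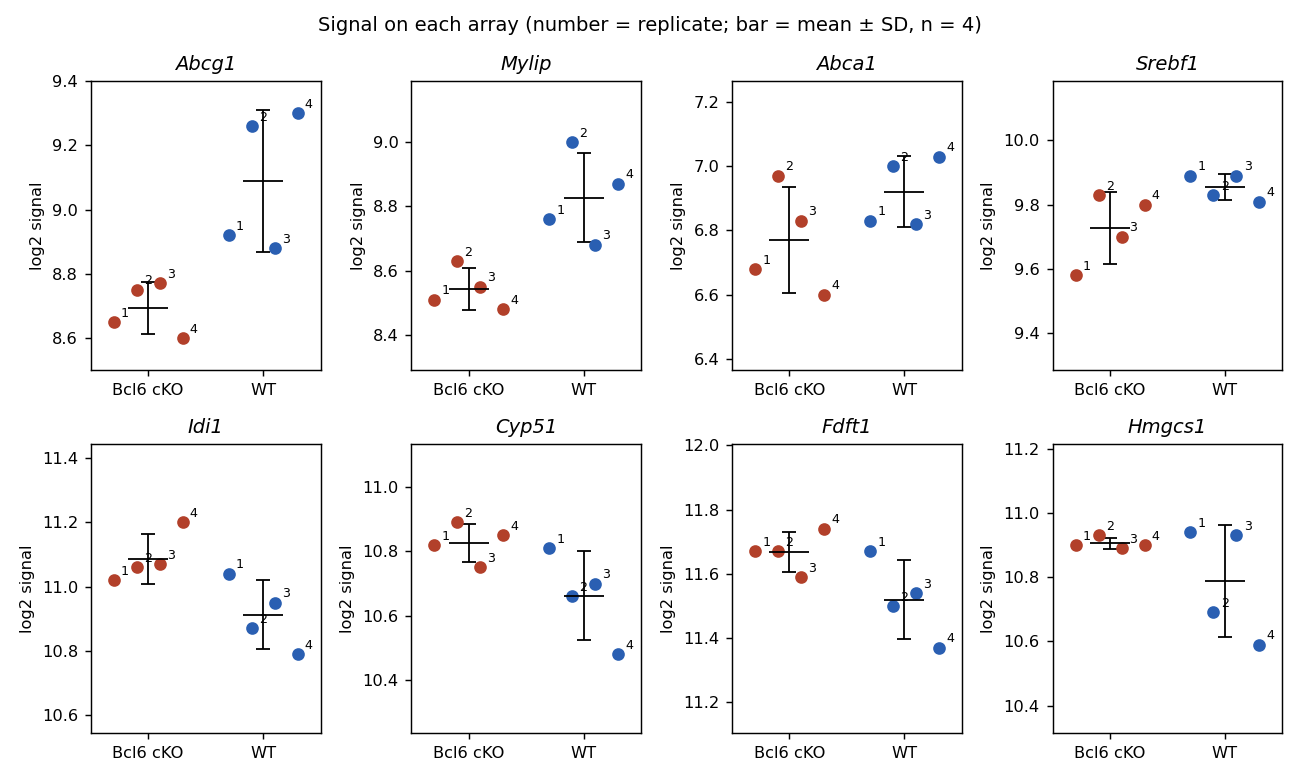
Log2 signal of 8 genes on each array, Bcl6 cKO left and WT right; points are arrays with their replicate number, and bars give the mean ± SD (n = 4 each). Each panel spans the same log2 range. Abcg1 and Mylip have separate groups, and for Idi1, Cyp51, Fdft1 and Hmgcs1 WT replicate 4 is the lowest of the 8 arrays.

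Of the 7 measured genes of the mevalonate and isoprenoid steps, 4 had a difference above 0 and 3 below, with a median of 0.07 (0.021 without WT replicate 4, 0.037 without Bcl6 cKO replicate 4 and 0.11 without WT replicate 3). Hmgcs1, which makes the HMG-CoA from which mevalonate is formed, read 10.90, 10.93, 10.89 and 10.90 in Bcl6 cKO, against 10.94, 10.69, 10.93 and 10.59 in WT. The Bcl6 cKO arrays lay within 0.04 of each other, while WT replicates 1 and 3 were level with or just above them and replicates 2 and 4 were lower (difference 0.12, adjusted p = 0.656, and 0.052 without WT replicate 4). Idi1, the isomerase that supplies the reactive isoprene unit, read 11.02, 11.06, 11.07 and 11.20 in Bcl6 cKO, against 11.04, 10.87, 10.95 and 10.79 in WT. WT replicate 1 lay just above Bcl6 cKO replicate 1, and the other WT arrays lay below all Bcl6 cKO arrays. The Idi1 difference was 0.18 (95% confidence interval 0.030 to 0.32, adjusted p = 0.357). A second cluster for Idi1 gave a difference of 0.20.

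The kinases of mevalonate, Mvk and Pmvk, had differences of 0.07 and 0.08. Mvd, the decarboxylase that follows them, differed by -0.01, with 8.92 ± 0.10 in Bcl6 cKO and 8.93 ± 0.04 in WT. Fdps, which joins isoprene units into farnesyl diphosphate, read 10.63 to 11.04 in Bcl6 cKO and 10.75 to 11.05 in WT (difference -0.03). Ggps1, which makes geranylgeranyl diphosphate for protein prenylation and so leads away from cholesterol, had the most negative value of these 7, -0.08 (9.92 ± 0.08 in Bcl6 cKO and 10.01 ± 0.06 in WT). Adjusted p-values of these 5 genes ran from 0.672 to 0.983.

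Of the 11 enzymes from squalene to cholesterol, 9 had a difference above 0 and 2 below, with a median of 0.10; without WT replicate 4 these were 6 and 5, with a median of 0.047. Fdft1, squalene synthase, commits isoprenoids to sterols; it read 11.67, 11.67, 11.59 and 11.74 in Bcl6 cKO, against 11.67, 11.50, 11.54 and 11.37 in WT (difference 0.15, adjusted p = 0.462). Sqle, the epoxidase of squalene and a rate-limiting enzyme, read 10.61, 10.87, 10.73 and 10.83 in Bcl6 cKO, against 10.80, 10.65, 10.69 and 10.38 in WT. Its Bcl6 cKO replicate 1 was below 3 of the 4 WT arrays, and the groups overlapped widely (difference 0.13, adjusted p = 0.676, and 0.047 without WT replicate 4).

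Cyp51, the demethylase of lanosterol, read 10.82, 10.89, 10.75 and 10.85 in Bcl6 cKO, against 10.81, 10.66, 10.70 and 10.48 in WT. WT replicate 1 lay among the Bcl6 cKO arrays and the other WT arrays below them (difference 0.17, 95% confidence interval 0.0094 to 0.32, adjusted p = 0.423). Ebp, a sterol isomerase, read 10.03, 10.18, 10.14 and 10.17 in Bcl6 cKO, against 10.08, 10.09, 9.98 and 9.99 in WT (difference 0.10, adjusted p = 0.579).

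The differences of Msmo1 and Hsd17b7, which act in the removal of methyl groups from the sterol ring, were 0.14 and 0.11. Nsdhl, of the same steps, and Lss, which closes the ring, both stood at 0.04, and the desaturase Sc5d at 0.03. The sterol reductases Tm7sf2 and Dhcr7 were at -0.02 and -0.01, and Dhcr7, which catalyses the last step of one branch, had a 95% confidence interval of -0.16 to 0.15.

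The sterol enzymes were low together on WT replicate 4. Taking the 18 mevalonate and squalene-to-cholesterol genes as deviations from each gene's mean over the 8 arrays, the mean deviation was -0.03, 0.05, 0.02 and 0.09 on Bcl6 cKO replicates 1 to 4, against 0.05, -0.02, 0.02 and -0.18 on WT replicates 1 to 4. WT replicate 4 was the lowest of the 8 arrays, ties included, for 14 of the 18 genes, where it was the lowest for 23.4% of all genes, and 1 of the 18, Ggps1, lay above its own mean there. On Bcl6 cKO replicate 4, 16 of the 18 lay above their mean, as did 53.5% of all genes. The median range between replicates of these genes was 0.17 in Bcl6 cKO and 0.29 in WT, or 0.14 in WT without replicate 4. Over all genes it was 0.18 in Bcl6 cKO and 0.21 in WT, or 0.13 in WT without replicate 4.

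The balance of directions was different without that array. With all arrays 13 of the 18 sterol enzymes had a difference above 0 (median 0.08), and without WT replicate 4 the count was 10 of 18 (median 0.03), where 53.0% of all genes then lay above 0. Lss, Nsdhl and Sc5d were then at -0.03, -0.02 and -0.02. Without Bcl6 cKO replicate 4 the count stayed at 13 with a median of 0.045. Idi1 and Cyp51 had differences of 0.13 and 0.10 without WT replicate 4, and neither had an unadjusted p under 0.05 in that fit.

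**Figure D3:**
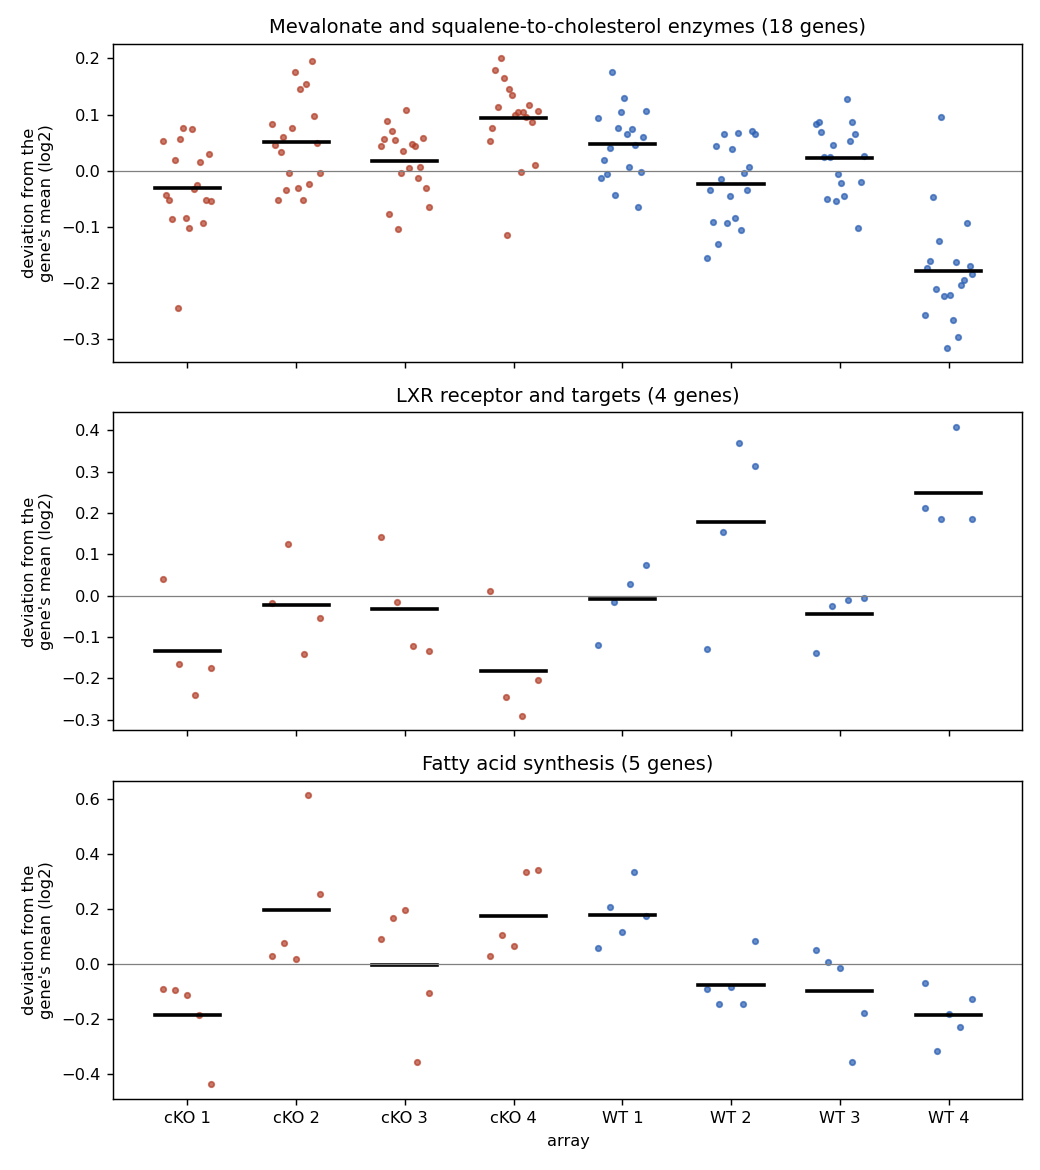
Deviation of each gene from its own mean over the 8 arrays (log2, vertical axis) by array, Bcl6 cKO left and WT right; points are genes and black bars their mean. The mean of the 18 sterol enzymes is -0.18 on WT replicate 4 and between -0.03 and 0.09 on the other arrays, while the mean of the LXR group is highest there, at 0.25.

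Differences of the 5 SREBP factors and regulators lay between -0.13 and 0.05. Srebf1, the factor for fatty acid genes, read 9.58, 9.83, 9.70 and 9.80 in Bcl6 cKO, against 9.89, 9.83, 9.89 and 9.81 in WT. Bcl6 cKO replicates 1, 3 and 4 lay below all WT arrays, replicate 4 just so, and replicate 2 lay among them (difference -0.13, 95% confidence interval -0.26 to 0.0096, adjusted p = 0.504). Srebf2, the factor for cholesterol genes, read 11.60, 11.63, 11.62 and 11.69 in Bcl6 cKO, against 11.82, 11.63, 11.72 and 11.57 in WT (difference -0.05, adjusted p = 0.851).

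Insig1, itself induced by SREBPs as feedback, read 10.71, 10.91, 10.83 and 10.84 in Bcl6 cKO, against 10.87, 10.83, 10.79 and 10.72 in WT. The difference of 0.02 had a 95% confidence interval of -0.11 to 0.15 (adjusted p = 0.953). Insig2 read 9.96, 9.91, 9.96 and 9.73 in Bcl6 cKO, against 9.93, 9.97, 10.09 and 9.85 in WT (difference -0.07, adjusted p = 0.802). Scap averaged 11.11 ± 0.06 in Bcl6 cKO and 11.06 ± 0.08 in WT (SD, n = 4 each, difference 0.05).

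The 3 measured genes for cholesterol movement inside the cell had differences of -0.06 to -0.01. Npc1 and Npc2 together release cholesterol from lysosomes. Npc1 averaged 10.56 ± 0.10 in Bcl6 cKO and 10.62 ± 0.12 in WT, and Npc2 10.62 ± 0.24 in Bcl6 cKO and 10.63 ± 0.20 in WT. Stard4, a carrier of cholesterol between membranes and an SREBP target, averaged 9.80 ± 0.06 in Bcl6 cKO and 9.81 ± 0.14 in WT.

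All 5 fatty acid synthesis genes had a difference above 0 with all arrays, with a median of 0.08 and adjusted p-values of 0.736 to 0.98. Without Bcl6 cKO replicate 2 or 4, or without WT replicate 3 or 4, 4 of the 5 lay above 0, with Scd2 the exception. The median was 0.029 without Bcl6 cKO replicate 2, 0.035 without WT replicate 4, 0.135 without WT replicate 1 and 0.175 without Bcl6 cKO replicate 1. Acly, which supplies cytosolic acetyl-CoA, read 10.99, 11.11, 11.17 and 11.11 in Bcl6 cKO, against 11.14, 10.99, 11.13 and 11.01 in WT (difference 0.03). Acaca, which makes malonyl-CoA, read 10.33, 10.50, 10.59 and 10.53 in Bcl6 cKO, against 10.63, 10.28, 10.43 and 10.11 in WT. WT arrays held both the highest and the lowest Acaca value (difference 0.13, 95% confidence interval -0.10 to 0.35). Without WT replicate 4 the Acaca difference was 0.041, and without WT replicate 1 it was 0.21.

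Fasn, the fatty acid synthase, read 11.72, 11.85, 12.03 and 11.90 in Bcl6 cKO, against 11.95, 11.75, 11.82 and 11.65 in WT (difference 0.08). The Fasn difference was 0.031 without Bcl6 cKO replicate 3, 0.035 without WT replicate 4, 0.13 without Bcl6 cKO replicate 1 and 0.135 without WT replicate 1. The desaturase Scd2 read 9.73, 10.42, 10.06 and 10.51 in Bcl6 cKO, against 10.34, 10.25, 9.99 and 10.04 in WT, with the spread in Bcl6 cKO (SD 0.36) over that in WT (SD 0.17) and a difference of 0.03. Its relative Scd1 read 5.58, 6.38, 5.41 and 6.10 in Bcl6 cKO, against 6.10, 5.62, 5.41 and 5.54 in WT. That level overlaps the 4.58 to 5.83 of Y-linked genes on arrays with high Xist, so Scd1 was not shown to stand above background. The macrophage marker Lyz2 read 5.97, 7.67, 5.82 and 6.37 in Bcl6 cKO, against 6.58, 6.57, 5.98 and 6.27 in WT. Lyz2 and Scd1 were both highest on Bcl6 cKO replicate 2, whereas Scd2 was highest on Bcl6 cKO replicate 4. The other macrophage and monocyte markers did not peak on Bcl6 cKO replicate 2. There Csf1r read 6.53, Adgre1 5.51 and Itgam 6.08, the last being the lowest of its 8 arrays. Adgre1 lay within the same 4.58 to 5.83 on all arrays, so it was not shown to stand above background either. The part of such cells in the Scd1 and Scd2 values was not tested.

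The sign of many differences of the synthesis genes changed between the subsets by sex-linked genes. Within the arrays with high Xist, where WT replicate 4 is the lone WT array, 17 of the 18 sterol enzymes and all 5 fatty acid genes had a difference above 0, with medians of 0.23 and 0.29. Among arrays with high Y-linked signal, where Bcl6 cKO replicate 1 is the lone Bcl6 cKO array, 5 of the 18 and 0 of the 5 lay above 0, with medians of -0.04 and -0.12. Sqle differed by 0.43 in the first subset and by -0.10 in the second, and Acaca by 0.43 and -0.12. Above 0 lay 47.5% of all genes in the first subset and 43.2% in the second.

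The test of this difference itself, the interaction of genotype and sex in limma, passed for 0 of the 35 genes over all genes (smallest adjusted p = 0.344, for Sqle), where 0.00502% of all genes passed. At an unadjusted p under 0.05 it picked 14 of the 35, against 11.8% of all genes. Each subset has 1 array of a genotype, which is assumed to vary like the rest, and sex and that array cannot be told apart there. With sex as a term in the fit, the 35 genes still gave 0 calls (smallest adjusted p = 0.205, for Abcg1).

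**Figure D4:**
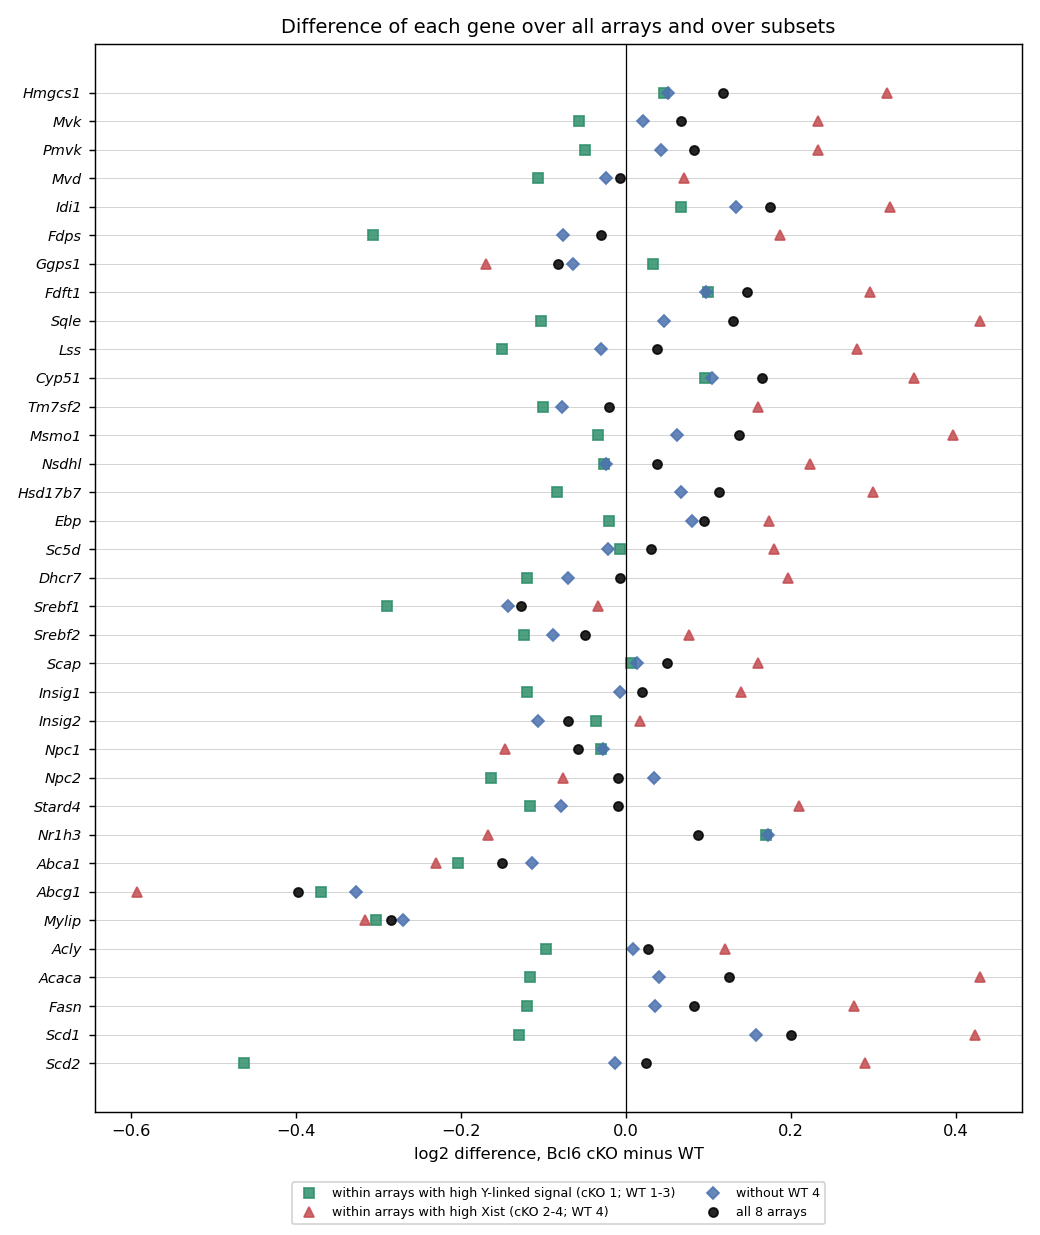
Log2 difference, Bcl6 cKO minus WT, of the 35 genes (horizontal axis) over all 8 arrays, without WT replicate 4, within the arrays with high Xist and within those with high Y-linked signal. For Sqle and Acaca the value within the arrays with high Xist, 0.43, lies right of their other values. Abcg1 and Mylip lie below 0 in each, which their separate groups make certain.

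A further list of 38 genes next to these pathways (elongation and activation of fatty acids, SREBP processing, sterol transport), 32 of them measured, also gave no call over all genes, with 0 of 32. At an unadjusted p under 0.05, 5 were higher and 3 lower, against 4.67% and 6.17% of all genes, and the median difference was 0.02 (0.0017 without WT replicate 4). Acsl5, which activates long fatty acids by joining them to coenzyme A, read 11.49, 11.56, 11.68 and 11.61 in Bcl6 cKO, against 11.31, 11.45, 11.34 and 11.36 in WT. These groups were separate (difference 0.22, 95% confidence interval 0.094 to 0.35, adjusted p = 0.172).

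Acsl4, a related enzyme that prefers polyunsaturated fatty acids, read 11.64, 11.78, 11.71 and 11.69 in Bcl6 cKO, against 11.62, 11.48, 11.52 and 11.53 in WT (difference 0.17, adjusted p = 0.263). These groups did not overlap either, though Bcl6 cKO replicate 1 lay just above WT replicate 1. Of the 32 neighbouring genes, 3 had separate groups higher in Bcl6 cKO and 0 lower, against 2.33% and 3.64% of all genes. Erlin1, an endoplasmic reticulum protein that restrains SREBP activation, averaged 8.80 ± 0.04 in Bcl6 cKO and 8.65 ± 0.08 in WT (SD, n = 4 each, difference 0.15, adjusted p = 0.348). Lpin1, a phosphatidate phosphatase, averaged 8.67 ± 0.12 in Bcl6 cKO and 8.85 ± 0.07 in WT (difference -0.18, adjusted p = 0.36).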

How the data were processed

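The deposited values are the authors' log2 signals, 1 per transcript cluster and array, made with RMA and Partek per the submitters' processing notes; of versions, settings and genome build nothing is given in the sources used here. RMA corrects background, brings arrays to 1 distribution and summarises probes, which compresses differences of dim genes. Of 35556 clusters, 21789 had 1 gene symbol in the platform annotation, 1621 several and 12146 no symbol there; the cluster with the highest mean was kept per gene (19938 genes, 999 with more than 1). Limma 3.58.1 in R 4.3.3 (lmFit, eBayes, no covariate) compared the genotypes over all genes, with Benjamini-Hochberg adjustment at 0.05. Differences within subsets by sex came from a fit of all 8 arrays with genotype by sex. The fit was tested on simulated data. The number of arrays limits the precision; log2 differences had a median standard error of 0.065. The members, the lists by role, the rule for named genes and the tests were chosen with earlier results of these data known. Full array values are given for the 8 members with the smallest p and for fixed anchors of each role, other members by means or ranges; of neighbouring genes the 4 with the smallest p are named. Promoter windows are RefSeq's (GRCm38.p6).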

Additional observations from a re-analysis of the deposited data

Results flagged for a closer look

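Nr1h3 stood apart on WT replicate 4, at a log2 signal of 7.14 where the other WT arrays read 6.79 to 6.81, a gap of 0.943 of the group's range. Chance singles out an array in about 1 in 20 groups of this size, and 70 groups (35 genes in 2 genotypes) were looked at.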

How the results depend on the processing

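None of the genes tested passed over all genes in any of the 21 other settings, the 8 fits without 1 array included (35 genes each, but 34 above the 30th percentile and 32 above the median of mean signal); the smallest adjusted p was 0.0727 (Sqle, within the arrays with high Xist), and that of Abcg1 was 0.0857 with a term for odd or even number. The replicate block likewise gave 0 genes higher and 0 lower of the 35, and 15 higher and 20 lower over all genes. Same-numbered arrays of the genotypes had deviations that correlated by 0.0731 to 0.206 across genes, Bcl6 cKO replicates 2, 3 and 4 each correlating most with the WT array of their own number (0.206, 0.203 and 0.205), and replicate 1 most with WT replicate 3 (0.186). The labels name no pairs, and the main fit took none. These correlations do not settle whether the numbers mark pairs. Counts over all genes, 21 higher and 23 lower, moved more. The genes higher numbered 5 with sex as a term, 0 among arrays with high Y-linked signal, 32 within those with high Xist, 33 with odd or even number, and 5 to 39 without 1 array. The genes lower numbered 47 with trend or robust moderation, 51 with array weights, 13 after median centring, 14 after quantile normalization, 42 and 52 above the 30th percentile and the median of mean signal, 5 with sex, 0 and 11 within high Y-linked signal and high Xist, 60 with odd or even number, and 5 to 100 without 1 array. The cause was not tested. Differences changed sign as follows, none of them past the threshold. Among arrays with high Y-linked signal 16 of the 35 did: Mvk at -0.057, Pmvk at -0.05, Ggps1 at 0.033, Sqle at -0.103, Lss at -0.15, Msmo1 at -0.033, Nsdhl at -0.027, Hsd17b7 at -0.083, Ebp at -0.020, Sc5d at -0.0067, Insig1 at -0.12, Acly at -0.097, Acaca at -0.117, Fasn at -0.12, Scd1 at -0.13 and Scd2 at -0.463. Within those with high Xist 8 did: Mvd at 0.07, Fdps at 0.187, Tm7sf2 at 0.16, Dhcr7 at 0.197, Srebf2 at 0.077, Insig2 at 0.017, Stard4 at 0.21 and Nr1h3 at -0.167. With array weights 5 did (Insig1 at -0.0034, with Lss, Nsdhl, Sc5d and Npc2), with sex as a term 4 (Scd2 at -0.087, with Tm7sf2, Dhcr7 and Stard4), and with quantile normalization 2 (Mvd and Stard4). Without 1 array 1 to 6 did, and 6 without WT replicate 4 (Lss, Nsdhl, Sc5d, Insig1, Npc2 and Scd2). Without 1 array Insig1 ran from -0.0092 to 0.058 and Scd2 from -0.085 to 0.18. The median difference of the 35 genes was -0.10 within high Y-linked signal and 0.19 within high Xist.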

Other observations

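Npc2 was higher on the even-numbered than on the odd-numbered replicates of both genotypes, a pattern picked after its values were seen. It read 10.42 and 10.42 on Bcl6 cKO replicates 1 and 3 and 10.90 and 10.73 on Bcl6 cKO replicates 2 and 4. In WT it read 10.44 and 10.48 on replicates 1 and 3 and 10.83 and 10.76 on replicates 2 and 4. The means of odd and even replicates were 10.42 and 10.82 in Bcl6 cKO, and 10.46 and 10.80 in WT. What the odd and even numbers stand for is not given by the labels. Correlations between arrays of the genotypes partly followed the odd and even numbers. Deviations within a genotype cancel out for each gene, so positive correlations between some arrays bring negative ones between others. Whether genes other than Npc2 share its split was not tested. Across all genes, deviations of odd-numbered Bcl6 cKO and odd-numbered WT arrays correlated by 0.0731 to 0.203. For even-numbered arrays of the genotypes the range was -0.0498 to 0.206. Between an odd-numbered and an even-numbered array it was -0.236 to 0.0219. Abcg1 had odd and even means of 8.71 and 8.68 in Bcl6 cKO, and 8.90 and 9.28 in WT. Scd2 had odd and even means of 9.90 and 10.47 in Bcl6 cKO, and 10.17 and 10.15 in WT.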
